A study of Phycomyces blakesleeanus with 24 samples.

Results

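Sporangiophores of the ΔL51 strain of Phycomyces blakesleeanus, which the labels call a photoreceptors mutant, were compared between growth in light and growth in darkness. The comparison takes in every row of the authors' deposited table for these structures, 14410 genes, of 14490 genes that appear in any table of the series. Phycomyces blakesleeanus is a zygomycete fungus, and its sporangiophores are giant single-celled stalks that carry the spores and bend toward light. The series also holds wild type sporangiophores and the mycelium of both strains, with 3 labelled libraries in each of 8 groups and all cultures grown on PDA (potato dextrose agar). Mutant sporangiophores had 3 labelled dark libraries, of which the authors kept 2, and 3 light libraries. Wild type sporangiophores had 2 kept libraries in the dark and 2 in light. The labels do not name the alleles of ΔL51, how long or how bright the light was, or the age of the cultures.

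Light responses of this fungus run through White Collar proteins. A White Collar 1 protein, encoded by MadA, binds a flavin and senses blue light, and it works with a White Collar 2 protein, encoded by MadB, as a complex that binds DNA. L51 is known as a strain with mutations in both MadA and MadB, which is blind in growth, bending and pigment responses. Mitochondrial respiration, in which most of the named genes below take part, passes electrons from NADH and succinate through complexes I to IV to oxygen, and complex V (ATP synthase) uses the resulting proton gradient to make ATP.

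Each gene comes with a log2 fold change of light over dark, an average log2 CPM (read counts scaled to library size), a likelihood ratio score, a p-value and an FDR (false discovery rate). A gene was called where the FDR was under 0.05. The title of the table is the only source for its direction, by which a positive fold means more RNA in light. Values for single libraries were not analysed here. The depth of each library is therefore unknown, and no spread between replicates can be shown. An approximate standard error was formed from each fold and its likelihood ratio (absolute fold over root of the ratio), with a median of 0.36 over called genes. The log2 CPM is an average over the 14 libraries of one fit that also holds the wild type, so it is not the level in mutant sporangiophores. For the same reason the levels of MadA and MadB do not check the genotype, and no gene that marks sporangiophores could be named from the symbols.

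Most called genes were lower in light. The authors' deposited table had 2256 called genes (15.7%), of which 477 (3.31%) were higher in light and 1779 (12.3%) were lower. Lower genes thus made up 78.9% of the calls, and they also moved further. The median fall in the authors' deposited table was 3.37-fold among lower genes, and 757 of them fell by at least 4-fold. The median rise there was 2.20-fold among higher genes, and 101 of them rose by at least 4-fold. At the extreme, 195 genes fell and 33 rose by at least 16-fold (4 on the log2 scale) in the authors' deposited table. Among genes at or above the median log2 CPM, the furthest called rise was 1.77 on the log2 scale. The called rises of at least 4-fold thus all lay below that median level.

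The genes that fell were highly expressed ones. Of the 1779 lower genes, 88.8% lay at or above the median log2 CPM and 63.0% lay in the highest expression quintile. Of the 477 higher genes, 43.6% lay at or above the median and 7.55% in the highest quintile. From the lowest to the highest quintile, the share of genes called lower in the authors' deposited table was 0.312%, 2.91%, 7.74%, 11.9% and 38.9%, and the share called higher was 2.32%, 4.37%, 5.55%, 3.05% and 1.25%. The median log2 fold change over all genes of a quintile went from 0.46 in the lowest to -0.47 in the highest. With a lowess trend on log2 CPM taken out, 1374 genes were lower and 637 higher, so that lower genes made up 68.3% of the calls.

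**Figure D1:**
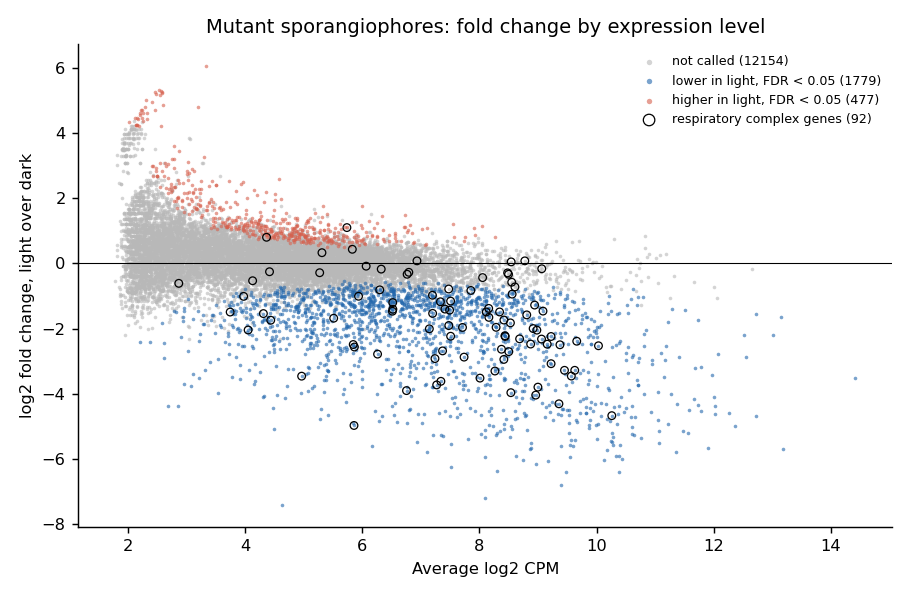
Log2 fold change of light over dark (vertical axis) against average log2 CPM (horizontal axis) for 14410 genes in mutant sporangiophores, with 1779 genes called lower in blue, 477 called higher in red and 92 respiratory genes ringed. The blue points spread downward at high log2 CPM, and most ringed genes lie among them.

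**Figure D2:**
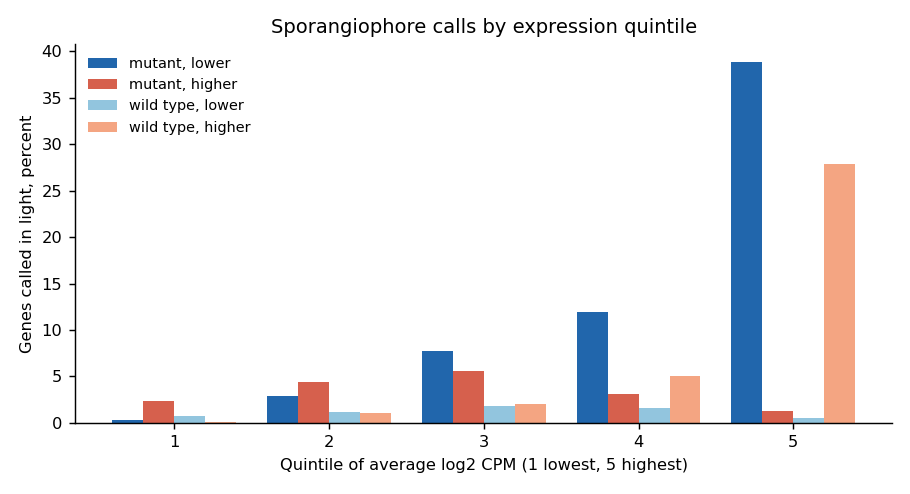
Percent of genes called lower or higher in light (vertical axis) in each quintile of average log2 CPM (horizontal axis), for mutant and wild type sporangiophores. In the highest quintile 38.9% of genes were lower in the mutant and 27.9% were higher in the wild type.

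Within the highly expressed genes, short genes fell the most. Gene span, from the first to the last base of the gene in the Phybl2 assembly, was known for 2869 genes of the highest quintile. These were divided into 5 equal classes by span, with genes of at most 1085 bases in the shortest class and of at least 3034 bases in the longest. From the shortest to the longest class, the share called lower in the authors' deposited table was 70.2%, 53.7%, 34.7%, 20.7% and 15.3%, and the median log2 fold change of the last 4 classes was -1.02, -0.44, -0.21 and -0.05. Across these genes Spearman's rho between span and fold was 0.50, while over all 14355 genes with a span it was 0.02. These values describe genes within one fit, and genes are not independent replicates. When level and span were taken out together, by a plane fitted to the 300 nearest genes in both, rho in the highest quintile was -0.03. The calls were then nearly even in number, with 1004 lower (6.99%) and 949 higher (6.61%), so that lower genes made up 51.4%. The labels' protocols name an amplification kit for the RNA, and whether the pattern in level and span comes from the cells or from the libraries was not tested.

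Genes of the respiratory chain and ATP synthase fell in light. Of the 92 measured genes, 66 were called lower and 1 higher in the authors' deposited table, beside 12.3% and 3.31% of all genes. The list had a median fold of -1.71 on the log2 scale against 0.05 over all genes. These genes were also highly expressed and short, with a median log2 CPM of 7.79 against 4.64 over all genes, a median span of 883 bases against 1400, and 72 of the 92 in the highest quintile. Of those 72, 58 were lower, beside 38.9% of all genes in that quintile. In the shortest class of the highest quintile, 39 of 46 respiratory genes (84.8%) were called lower in the authors' deposited table, beside 364 of 528 other genes (68.9%), with median log2 fold changes of -2.24 and -1.97. In the next class, 13 of 15 respiratory genes were lower, beside 52.8% of 559 other genes, with medians of -1.96 and -0.98. With the level trend out, 50 of the 92 were lower and 2 higher, beside 9.54% and 4.42% of all genes. With level and span taken out together, 18 were lower and 11 higher, beside 6.99% and 6.61% of all genes. The median was -0.08 against 0.06 over all genes. When a lowess trend on level and then one on span were taken out in turn, 44 respiratory genes were lower (beside 9.49% of all genes) and 2 higher (beside 3.78%). The list median was then -0.92, but rho between span and fold in the highest quintile was still 0.34.

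**Figure D3:**
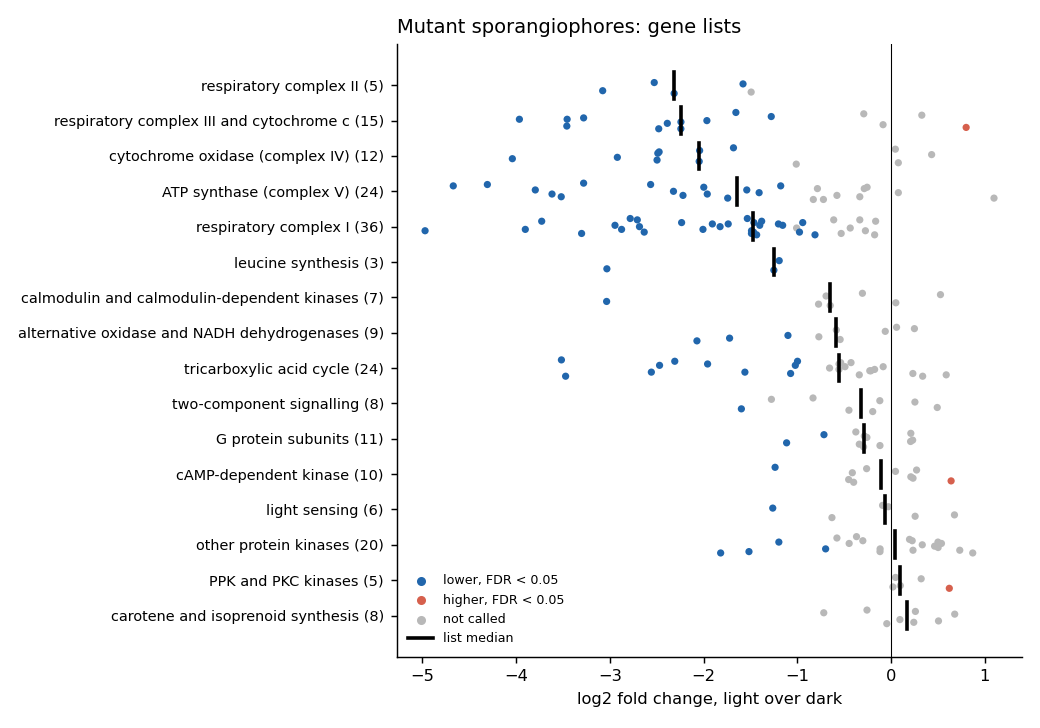
Log2 fold change of light over dark (horizontal axis) of each measured gene in 16 lists (vertical axis, with the number of genes), in blue where called lower, red where called higher and grey where not called, with a black bar at the list median. Medians of the 5 respiratory lists lie between -2.31 and -1.48, and those of the lists for signalling, light sensing and carotene lie between -0.65 and 0.17.

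In complex I, the NADH dehydrogenase that feeds electrons into the chain, 28 of 36 genes were lower and 0 higher in the authors' deposited table, where all 36 folds were below 0. Over all genes 12.3% were lower, and 38.9% in the highest quintile, which holds 32 of the 36. The list median was -1.48, and -0.09 with level and span out, beside 0.05 and 0.06 over all genes. NDUFA4 fell 31.4-fold in the authors' deposited table, by 4.97 on the log2 scale (FDR 1.3e-40, approximate 95% interval -5.67 to -4.27). In mammals the protein of that name is now counted with cytochrome oxidase. NDUFS4, an accessory subunit, fell (-3.73, FDR 4.64e-16), and so did Ndufa5 (-3.30, FDR 5.63e-20), in the authors' deposited table. NDUFS7 (-2.88) and NDUFS8 (-2.71), which carry iron-sulfur clusters near the quinone site, fell in the authors' deposited table. NDUFS1, the largest iron-sulfur subunit, fell by 0.94 (FDR 0.00182) per the authors' deposited table, and its fold was 0.077 with the level trend out. Ndufv1, the flavoprotein that binds NADH, and NDUFV2 beside it had log2 fold changes of -0.33 and -0.44 in the authors' deposited table and were not called. With level and span out, NDUFA4 (-3.76), NDUFA4_3 (-2.73), NDUFS4 (-1.78), NDUFS8 (-1.61), NDUFS7 (-1.18) and NDUFA9 (-1.10) were called lower. Under the same setting 4 genes were called higher, namely NDUFA4_2 (2.90), NDUFA13 (1.65), NDUFB11 (1.10) and Ndufab1 (0.95), of which the last 3 were called lower in the authors' deposited table.

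Complex II, succinate dehydrogenase, had 4 of 5 genes lower in the authors' deposited table. Over all genes 12.3% were lower, and 38.9% in the highest quintile, which holds 4 of the 5. The membrane anchors of complex II, SDHD (-3.08, FDR 7.1e-12) and SDHC (-2.53, FDR 1.28e-10), fell in the authors' deposited table. The flavoprotein genes SDH1 (-2.31) and SDH1_2 (-1.58) fell in the authors' deposited table, while SDH4 had a fold of -1.49 with an FDR of 0.0811. Once level and span were out, SDH1 alone of the 5 was called, at -0.86, and SDHD was at 0.017.

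In complex III, which passes electrons from quinol to cytochrome c, and cytochrome c itself, 11 of 15 genes were lower and 1 higher in the authors' deposited table. The share over all genes was 12.3% lower and 3.31% higher. In the highest quintile, which holds 11 of the 15, 38.9% of all genes were lower. RIP1_2, a gene for the Rieske iron-sulfur protein, fell 15.6-fold, by 3.97 on the log2 scale (FDR 3.64e-19, approximate 95% interval -4.79 to -3.14), in the authors' deposited table. The cytochrome c gene CytC2 fell by 3.46 (FDR 1.35e-10) per the authors' deposited table. The small subunits QCR10_2 (-3.46) and QCR10 (-3.28) and the core subunit QCR2 (-2.39) were lower too in the authors' deposited table. CYT1, the gene for cytochrome c1, fell by 2.24 (FDR 5.99e-13) per the authors' deposited table. Once level and span were out, QCR10_2 (-2.86), QCR2 (-1.32) and RIP1_2 (-1.21) were called lower and QCR6 (2.13) higher, whereas CYT1 was at 0.22.

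Cytochrome oxidase, complex IV, reduces oxygen to water. The authors' deposited table had 8 of its 12 genes lower and 0 higher. Over all genes 12.3% were lower, and 38.9% in the highest quintile, which holds 7 of the 12. COX6B_2 fell furthest, at -4.04 in the authors' deposited table (FDR 7.96e-14, approximate 95% interval -5.04 to -3.04). Falls followed for COX9 (-2.92), COX6A (-2.50), COX5B (-2.47) and COX5A (-2.05) in the authors' deposited table. COX7A stood apart from these subunits with a log2 fold change of 0.05 (FDR 0.95) at a log2 CPM of 8.54 per the authors' deposited table. Among genes of like level and span it was high, at 2.93 with level and span out (adjusted p = 2.26e-19), and COX4 was at 2.54 (adjusted p = 3.34e-11). COX5A was called higher with them, at 0.98, and COX9_2 (-1.67), COX4_2 (-1.71) and COX6B (-1.74) were called lower. For COX7A and COX4 these are the lowest adjusted p over the alternatives, and the highest was 1 for both. The assembly factor genes COX11 and COX15 were not called, at -1.01 and 0.43 in the authors' deposited table.

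In ATP synthase, complex V, 15 of 24 genes were lower and 0 higher in the authors' deposited table. Over all genes 12.3% were lower, and 38.9% in the highest quintile, which holds 18 of the 24. ATP5, which in yeast encodes the protein that joins the catalytic head to the peripheral stalk, fell 25.5-fold, by 4.67 on the log2 scale (FDR 8.72e-17, approximate 95% interval -5.71 to -3.63), in the authors' deposited table. ATP17_2 fell 19.8-fold (-4.31, FDR 8.21e-28) in the authors' deposited table, and ATP20 (-3.80), ATP17 (-3.62), ATP15 (-3.52) and ATP18_2 (-3.28) were lower there too. In yeast, ATP17, ATP18 and ATP20 encode small subunits of the membrane part and ATP15 a small subunit of the central stalk. The genes that in yeast encode the alpha, beta and gamma subunits of the catalytic part were not called, with log2 fold changes of -0.72 for ATP1 (FDR 0.195), -0.83 for ATP2 (FDR 0.0819) and -0.33 for ATP3 (FDR 0.556) in the authors' deposited table. Their spans were 2595, 2157 and 1200 bases, and those of ATP17_2, ATP20, ATP17, ATP15 and ATP18_2 were 612, 680, 507, 287 and 404 bases. Called and uncalled genes overlapped in span. ATP5 spans 1381 bases, and ATP4_2 (1578 bases), ATP4 (1395 bases) and ATP7 (1312 bases) were called lower too. Taking out level and span left ATP5, ATP10 (-1.59), ATP11 (-1.54), ATP17 (-1.50) and ATP17_2 (-1.05) called lower but not ATP20 (-0.71) or ATP15 (-0.94). The calls of ATP4_2 (-0.92), ATP7 (-0.35), ATP4 (-0.12) and ATP18_2 (-0.08) were lost under that setting as well. ATP16 (2.003), INH1_2 (1.88) and ATP21 (1.54) were then called higher. The list was formed by symbol or product name, so it is not limited to subunits of the enzyme.

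Numbered copies of a respiratory gene did not always move together. Of 22 families with numbered copies among the symbols, 10 had copies that differed in their call, and the 6 with the widest spread are described. NDUFA4 (-4.97) and NDUFA4_3 (-3.90) fell in the authors' deposited table, while NDUFA4_2 had a log2 fold change of -0.17 (FDR 0.873) at the highest log2 CPM of the 3, 9.06. ATP15 fell (-3.52) with ATP15_2 at -0.26 (FDR 0.831), and INH1, which in yeast encodes an inhibitor of ATP synthase, fell (-2.57) with INH1_2 at 0.08 (FDR 0.923) per the authors' deposited table. COX4_2 fell by 2.49 (FDR 2.82e-10) and COX4 was at 0.08 (FDR 0.923) per the authors' deposited table. In the QCR1 family of 4, QCR1_2 fell by 1.28 (FDR 0.00396) and QCR1 rose by 0.80 (FDR 0.0442) in the authors' deposited table, with QCR1_3 at -0.09 and QCR1_4 at 0.33. The QCR1 call ended under all 7 of its alternatives, where the lowest adjusted p was 0.0648. Hpt_2, for a histidine phosphotransfer protein, fell (-1.60, FDR 0.00636) with Hpt at -0.12 per the authors' deposited table. Differences between copies were not tested, and reads shared by near-identical copies could have been split between them by the authors' counting, which is not given in the sources used here.

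**Figure D4:**
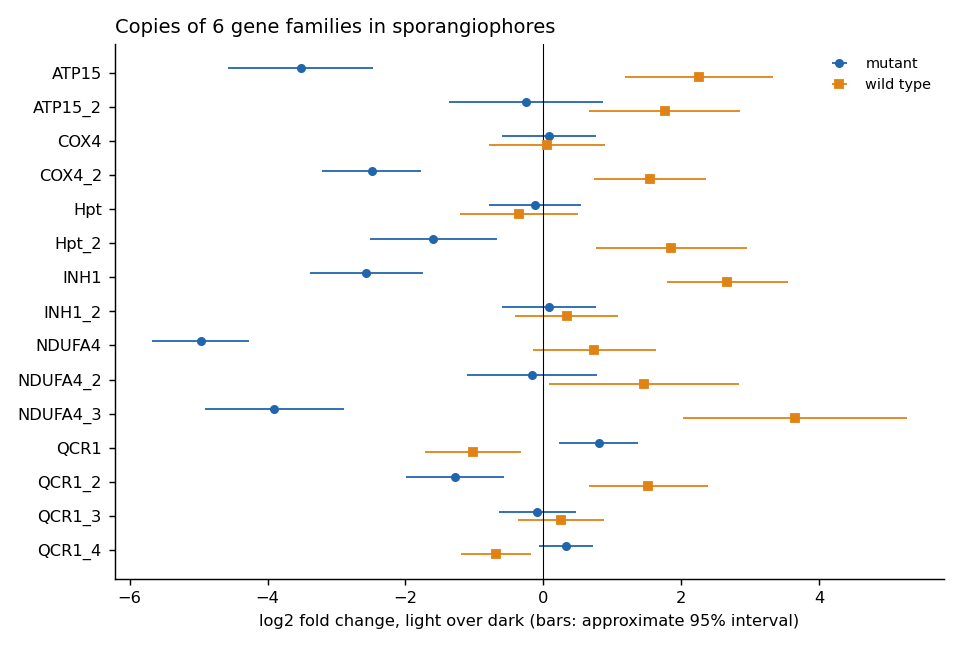
Log2 fold change of light over dark (horizontal axis) for the copies of 6 gene families (vertical axis), with mutant sporangiophores as blue circles, wild type as orange squares and bars for the approximate 95% interval. NDUFA4 at -4.97 lies far below NDUFA4_2 at -0.17, and QCR1 is the one copy called higher in the mutant, at 0.80. The QCR1 call ended under all 7 of its alternatives.

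Of 9 genes for enzymes that bypass the proton-pumping complexes, the authors' deposited table had 3 lower and 0 higher, with a median log2 fold change of -0.58. The share over all genes was 12.3% lower, and 38.9% in the highest quintile, which holds 5 of the 9. The alternative oxidase gene AOX, whose product passes electrons from quinol straight to oxygen, fell 4.20-fold, by 2.07 (FDR 1.65e-06), in the authors' deposited table. It stayed lower with level and span out, at -1.94 (adjusted p = 1.61e-05), with adjusted p between 7.82e-07 and 0.0128 over its alternatives. NDE2 (-1.72) and NDI2 (-1.10), genes of alternative NADH dehydrogenases, fell per the authors' deposited table, but neither was called with the level trend out.

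Of 24 tricarboxylic acid cycle and pyruvate dehydrogenase genes, 10 were lower and 0 higher in the authors' deposited table, with a median of -0.56. The list was highly expressed, with 22 of 24 genes in the highest quintile, where 38.9% of all genes were lower, but its genes were long, with a median span of 2233 bases. PbIdh2a, an isocitrate dehydrogenase gene, fell 11.4-fold (-3.52, FDR 5.72e-31), in the authors' deposited table, and Pb2oxodhE2, for the E2 subunit of oxoglutarate dehydrogenase, fell 11.1-fold (-3.47, FDR 3.17e-23). Both were also called lower with level and span out, at -3.18 and -2.60, as was the aconitase gene PbAcoc, at -2.47 (FDR 1.69e-09) per the authors' deposited table and -1.79 with level and span out. PbIdh1a, a further isocitrate dehydrogenase gene, fell by 2.31 (FDR 2e-10) per the authors' deposited table and was called lower with level and span out too, at -1.33. Several other copies of these enzymes were not called, with PbIdh2b at -0.66, PbIdh2c at 0.34, PbAcoa at -0.08, PbAcob at -0.34 and PbAcod at 0.23 per the authors' deposited table. The pyruvate dehydrogenase genes PbPdhE1b (-2.56) and PbPdhE1a (-1.96) fell in the authors' deposited table but were at -0.24 and 0.14 with level and span out. The malate dehydrogenase genes PbMdhb (-1.07) and PbMdha (-1.02) fell in the authors' deposited table, and with the level trend out PbMdha was higher, at 1.28 (adjusted p = 0.00506, with a range of 0.000547 to 0.36 over its alternatives).

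All 3 genes of leucine synthesis were lower in the authors' deposited table, namely leuC (-3.03, FDR 1.56e-20), leuA (-1.25, FDR 4.54e-05) and leuB/leu1 (-1.19, FDR 0.000206). All 3 lie in the highest quintile, where 38.9% of genes were lower, beside 12.3% of all genes. After level and span were out, leuC was at -1.79 (adjusted p = 3.78e-07, with a range of 3.31e-21 to 0.000898 over its alternatives), and leuA and leuB/leu1 were not called.

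Among the 6 White Collar genes, 1 (16.7%) was lower and 0 higher in the authors' deposited table, a share near the 12.3% of all genes that were lower. MadB fell 2.40-fold, by 1.26 (FDR 0.00918, approximate 95% interval -2.02 to -0.51), in the authors' deposited table. That call ended when the likelihood ratio was set against an F distribution with 8 residual degrees of freedom (adjusted p = 0.101) and with the level trend out (-0.83, adjusted p = 0.147). Over the 8 alternatives the adjusted p of MadB lay between 0.00526 and 0.646. MadA was at -0.63 with an FDR of 0.146, and the unadjusted p was under 0.05 for 3 of the 6 genes, in the authors' deposited table. WcoA, a further White Collar 1 homolog, had a log2 fold change of 0.26 (approximate 95% interval -0.25 to 0.76) per the authors' deposited table. The White Collar 2 relatives WctC, WctD and WctB were at 0.68, -0.09 and -0.03 in the authors' deposited table.

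None of the 8 carotene and isoprenoid genes was called in the authors' deposited table, beside 15.7% of all genes. There 0 also had an unadjusted p under 0.05, and 0 passed under the F distribution. In the highest expression quintile, which holds 7 of the 8, 38.9% of all genes were lower and 1.25% higher. CarB, the gene for phytoene dehydrogenase, had a log2 fold change of -0.05 (approximate 95% interval -0.88 to 0.78) per the authors' deposited table. CarRA, whose product is both lycopene cyclase and phytoene synthase, was at 0.24 (approximate 95% interval -0.60 to 1.09) per the authors' deposited table. The folds of carC, CarG2 and hmgR, the gene for HMG-CoA reductase, were -0.72, 0.68 and 0.09 in the authors' deposited table. These intervals allow changes of over 1.5-fold in either direction.

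Signalling genes were called at about the rate of all genes. Of 61 in 6 lists, the authors' deposited table had 9 (14.8%) lower and 2 higher, beside 12.3% and 3.31% of all genes. Cam1, the calmodulin gene, fell 8.20-fold, by 3.03 (FDR 2.16e-13), at a log2 CPM of 10.70 per the authors' deposited table, and was at -0.22 with level and span out. The 6 calmodulin-dependent kinase genes were not called and lay between -0.77 and 0.53 in the authors' deposited table.

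CK2A and CK2B, genes for the catalytic and the regulatory subunit of casein kinase 2, fell (-1.52, FDR 4.38e-07, and -1.20, FDR 0.0118) per the authors' deposited table. PRP4, named after a kinase of splicing in fission yeast, fell by 1.82 (FDR 1.73e-06) per the authors' deposited table. PRP4 (-1.82) and CK2A (-1.06) were called lower with level and span out, and CK2B (-0.31) was not. YPK1 fell by 0.70 (FDR 0.00717) per the authors' deposited table, and no other gene of the 20 in that list was called. The YPK1 call ended under 6 of the 8 alternatives, and its fold was -0.039 with the level trend out.

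Further lists hold the subunits of heterotrimeric G proteins and of cAMP-dependent kinase. The G protein beta subunit genes Gpb2 (-1.11, FDR 0.00187) and Gpb1 (-0.72, FDR 0.0384) fell per the authors' deposited table, with 0 of the other 9 subunits called. Both calls ended under the F distribution (adjusted p of 0.0612 for Gpb2 and 0.167 for Gpb1) and with level and span out (0.219 and 0.0512), and that of Gpb1 also under the fold limit and Benjamini-Yekutieli. Over the alternatives the adjusted p lay between 0.000983 and 0.219 for Gpb2 and between 0.0198 and 1 for Gpb1. The catalytic subunit gene pkaC9 fell by 1.24 (FDR 0.0243) and the regulatory subunit gene PkaR2 rose 1.56-fold, by 0.64 (FDR 0.0362), in the authors' deposited table. The pkaC9 call ended under the F distribution (adjusted p = 0.140) and under Benjamini-Yekutieli (adjusted p = 0.246). PKC1, a protein kinase C gene, rose 1.54-fold, by 0.62 (FDR 0.0488), in the authors' deposited table. PKC1, PkaR2 and QCR1 were the 3 genes with a symbol that were called higher. All 3 calls ended when the folds were centred on their median, with adjusted p between 0.0601 and 0.0780. They also ended under the fold limit, under the F distribution (adjusted p between 0.163 and 0.183) and under Benjamini-Yekutieli (between 0.367 and 0.495).

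The furthest falls belonged to genes that carry no symbol. Among those at or above the median log2 CPM, PHYBLDRAFT_164420 fell 148-fold, by 7.21 (FDR 2.18e-18, approximate 95% interval -8.74 to -5.67), in the authors' deposited table. PHYBLDRAFT_136423, PHYBLDRAFT_130060 and PHYBLDRAFT_143447 followed at -6.80, -6.41 and -6.41, with log2 CPM values of 9.40, 9.47 and 10.39 in the authors' deposited table. All 4 stayed lower with level and span out, at -5.86, -3.55, -3.94 and -2.86. The furthest rises under the same limit were far smaller, with PHYBLDRAFT_133191 at 1.77 (FDR 0.021), PHYBLDRAFT_167695 at 1.77 (FDR 7.03e-05), PHYBLDRAFT_143988 at 1.56 and PHYBLDRAFT_73381 at 1.55 per the authors' deposited table. Genes below the median log2 CPM rose by up to 6.06 in the authors' deposited table, and at such levels a large fold may come from a handful of reads.

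Genes that fell were next to each other somewhat more often than genes overall. By their order in the Phybl2 assembly, 329 of 1701 genes that follow a lower gene (19.3%) were lower themselves, beside 13.1% of the next genes over all 12962 measured pairs. For higher genes the figures were 2.84% and 3.22%. There were 46 runs of 3 or more lower genes, and the longest held 6, namely PHYBLDRAFT_155513 (-5.91), PHYBLDRAFT_133949 (-4.70), PHYBLDRAFT_133951 (-1.48), PHYBLDRAFT_113332 (-1.04), PHYBLDRAFT_57297 (-2.29) and leuC (-3.03), with log2 fold changes from the authors' deposited table. Neighbouring genes may be counted from overlapping transcripts, and no test of this clustering was made.

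By the titles of the 2 comparisons, the only source for their directions, wild type sporangiophores moved the other way, with 8.41% of genes called. Of the 1779 genes lower in mutant sporangiophores, the authors' deposited table for the wild type had 810 as higher, which is 45.5% of them and 77.7% of the 1042 genes higher in the wild type. The background is 7.23% of all genes higher in the wild type and 12.3% lower in the mutant. In the other pairing, 32 genes were higher in the mutant and lower in the wild type, 6.71% of 477 and 18.8% of 170, with backgrounds of 1.18% of all genes lower in the wild type and 3.31% higher in the mutant. No gene was called in the same direction in both of the authors' deposited tables. At an unadjusted p under 0.05 there were 1270 and 228 genes in opposite directions and 13 lower and 11 higher in both. At that limit 2339 genes were lower and 1363 higher in the mutant, and 885 were lower and 1786 higher in the wild type. The 2 comparisons share no library, although they share one fit. Under the F distribution the wild type had 0 calls in either direction.

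The correlation between the 2 folds was more negative at higher expression level. Pearson's r between the 2 folds was -0.51 over 14410 genes, and from the lowest to the highest quintile it was -0.09, -0.28, -0.51, -0.64 and -0.80. These are descriptions across genes of one fit. Over the same quintiles the median approximate standard error of the mutant fold was 0.83, 0.49, 0.34, 0.29 and 0.31. Whether this error accounts for the weaker r at low level was not tested. With the level trend taken out of both folds, r was -0.37. With level and span taken out of both, r was -0.32 over all genes with a span and -0.67 in the highest quintile. In the highest quintile, the share of genes higher by the wild type's table, again the authors' deposited table, went from 52.1% in the shortest class by span to 6.45% in the longest, the reverse of the mutant. On the folds with level and span out, 113 genes were lower in the mutant and higher in the wild type, and 144 were the other way round. Under that setting 0 were lower in both and 1 was higher in both. The totals were 1004 lower (6.99%) and 949 higher (6.61%) in the mutant, and 205 lower and 207 higher in the wild type.

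**Figure D5:**
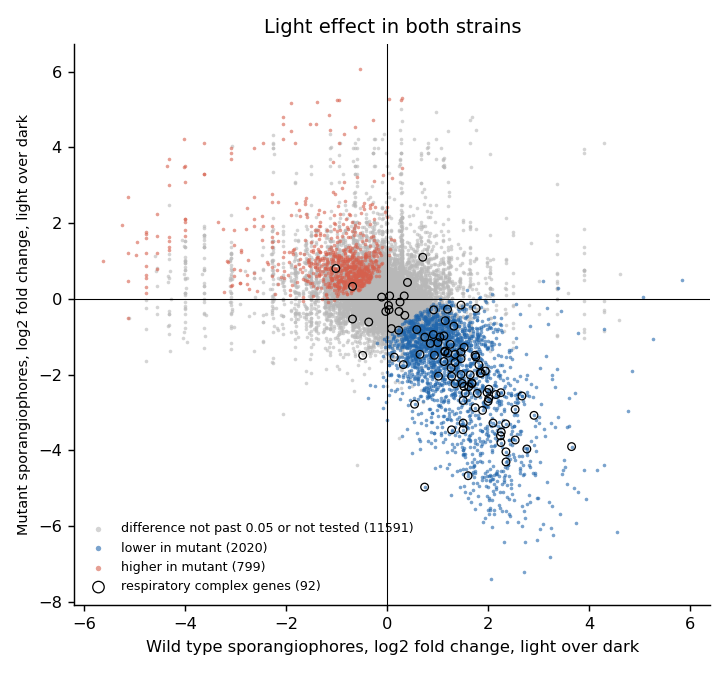
Log2 fold change of light over dark in mutant sporangiophores (vertical axis) against that in wild type sporangiophores (horizontal axis), with 2020 genes whose light effect was lower in the mutant in blue, 799 where it was higher in red and 92 respiratory genes ringed. Most ringed genes lie at lower right, below 0 in the mutant and above 0 in the wild type.

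The difference itself was tested for 14401 genes, as the mutant fold minus the wild type fold over its approximate standard error, two-sided, with Benjamini-Hochberg adjustment. The light effect was lower in the mutant for 2020 genes (14% of those tested) and higher for 799 (5.55%). Of the 2020, 1582 were called lower in the mutant, and 772 of these had no call in the wild type. Of the 799, 306 were called higher in the mutant and 144 lower in the wild type. Were the sign of the mutant table turned, 40 genes would be lower in the mutant and 273 higher. The size of this difference thus rests on the directions given in the titles of both comparisons.

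Respiratory genes were among those with opposite light effects in the 2 strains. Of the 92, 70 had a lower light effect in the mutant and 2 a higher one, beside 14% and 5.55% of all tested genes. Of the same 92, 47 were lower in the mutant and higher in the wild type, beside 810 of all 14410 genes. In the highest quintile lay 72 of the 92, of which 46 were in its shortest class by span. Of all genes in that class, 70.2% were lower in the mutant and 52.1% higher in the wild type. The median log2 fold change of the 92 was -1.71 in the authors' deposited table for the mutant and 1.34 in that for the wild type. The largest difference among genes with a symbol was that of NDUFA4_3, with folds of -3.90 and 3.65 in the authors' deposited tables and a difference of -7.55 (adjusted p = 3.39e-13). This order rests on the sign of the mutant table. Were it turned, the NDUFA4_3 difference would be 0.25, and 0 respiratory genes would have a lower and 5 a higher light effect in the mutant. RIP1_2 followed with -3.97 and 2.77 in the authors' deposited tables, and then ATP17_2 with -4.31 and 2.35. MadB was at -1.26 and 0.97 in the authors' deposited tables, a difference of -2.23 (adjusted p = 7.25e-05). Cam1 was at -3.03 and 2.25 in the authors' deposited tables (difference -5.28, adjusted p = 1.41e-18). The carotene gene carC was not called in the mutant (-0.72) but was higher in the wild type (2.82) in the authors' deposited tables, and its light effects differed by -3.54 (adjusted p = 4.6e-05).

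Other genes fell in the mutant and were not called in the wild type. leuA and leuB/leu1 had wild type folds of 0.04 and -0.10 in the authors' deposited table, and the strain difference passed for leuA (-1.29, adjusted p = 0.0181) and not for leuB/leu1 (-1.09, adjusted p = 0.0635). NDUFA4 had a wild type fold of 0.74 (FDR 0.407) per the authors' deposited table beside its fall of 4.97 in the mutant. WcoA was called higher in the wild type (1.04, FDR 0.0033) and not in the mutant in the authors' deposited tables. The WcoA difference of -0.79 did not pass (adjusted p = 0.133). Were the sign of the mutant table turned, it would be -1.30 and would pass (adjusted p = 0.0312), alone among the White Collar genes.

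Far fewer genes were called in the mycelium of the same strain. The authors' deposited table for mutant mycelium, which comes from another fit, called 77 genes higher (0.541%) and 82 lower (0.576%) in light, 1.12% in all. Among genes lower in sporangiophores, 24 were higher in mycelium, 31.2% of the 77, and 9 were lower in both, 11.0% of the 82, beside 12.6% of the shared genes called lower in sporangiophores. Pearson's r between the folds of the 2 structures was -0.02 over 14162 genes. In the authors' deposited table for mycelium, 2793 of 14242 genes had a fold of exactly 0, NDUFA4 among them. Mutant sporangiophores had 0 such genes. A fold of exactly 0 gives no direction in mycelium, and such genes were kept in r. The 92 respiratory genes had a median of -0.24 in the authors' deposited table for mycelium, where none was called higher and NDUFA4_3 (-2.69) alone was called lower. CarB (-2.65), CarRA (-2.28) and CarG2 (-2.07) were lower in mutant mycelium in the authors' deposited table, whereas their folds in sporangiophores were -0.05, 0.24 and 0.68.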

How the data were processed

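Per the labels' protocols, total RNA came from a Trizol extraction and went through a Message Amp-II kit. The authors ran Bowtie and edgeR, per the submitters' processing notes. Read layout, build, annotation and counting rule are not given in the sources used here. The authors set aside 4 of 24 libraries, among them dark mutant sporangiophore replicate 2, because these varied more than their replicates. The choice rests on the measured outcome and lowers the spread the test sees. Each deposited table is one comparison, and per the file headers it holds a log2 fold change, a log2 CPM, a likelihood ratio score, a p-value and an FDR. Each p-value as deposited was checked to be the chi-square tail of the score and the FDR its Benjamini-Hochberg adjustment. A count test had been planned, but the tables give no counts, so the calls are the authors' own edgeR calls at an FDR under 0.05. No gene or library was refitted.

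IDs were matched to locus tags of RefSeq assembly Phybl2 (14355 of 14410, 99.6%), and 208 genes had a symbol. Members and gene lists were chosen with earlier results of these data known. The list themes also include RNA silencing, which had 2 measured genes at -0.28 and 0.21 in the authors' deposited table and is not described. Named genes were, among called genes at or above the median log2 CPM, the 12 furthest falls and 8 furthest rises with a symbol and 4 each without; all light sensing genes; up to 4 called members of each list; copies of 6 families; and 5 strain differences in each direction. The rule gave 69 genes, and 47 more were named after their values were seen. The difference test was also run on counts simulated for 14410 genes. Every simulated gene had the same known spread between replicates, and every library the same depth. There the test called 0.0633% of unchanged genes, 32% of 100 genes with a true log2 difference of 2 and 95% of 100 at 4. In the authors' fit the spread had to be estimated from few libraries, so these rates are not its error rates. Alternatives were a fold limit, a log2 CPM limit, an F or t reference, centring, Benjamini-Yekutieli adjustment, and trends on level and span taken out. Python 3.11.15, numpy 2.4.6, pandas 2.3.3, scipy 1.17.1 and statsmodels 0.14.6 were used.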

Additional observations from a re-analysis of the deposited data

Results flagged for a closer look

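Light effects in mutant and wild type sporangiophores were compared by the approximate test of the difference with Benjamini-Hochberg adjustment. Of 208 genes with a symbol, 98 had a lower light effect in the mutant and 6 a higher one. Over all tested genes the shares were 14% and 5.55%. Of the 208, 126 lay in the highest expression quintile, where 38.9% of all genes were called lower in the mutant. The 10 given here were picked as the largest in each direction. They rest on the directions given in the titles of both comparisons. The light effect was lower in the mutant for NDUFA4_3 (-7.55 on the log2 scale), RIP1_2 (-6.73), ATP17_2 (-6.66), COX6B_2 (-6.39) and ATP5 (-6.27). It was higher in the mutant for SSK1 (2.13, adjusted p = 0.00171), QCR1 (1.82, adjusted p = 0.000839), MKL2 (1.41, adjusted p = 0.0124), SSP1 (1.32, adjusted p = 0.0449) and PkaR2 (1.27, adjusted p = 0.00221). SSK1, MKL2 and SSP1 were not called in mutant sporangiophores. Their log2 fold changes there were 0.49, 0.50 and 0.73 in the authors' deposited table, beside -1.64, -0.91 and -0.58 in the wild type. A separate gene with the symbol SSk1 was at -0.83 in the mutant and 1.05 in the wild type. Its difference of -1.88 did not pass (adjusted p = 0.105). Were the sign of the mutant table turned, ATP17_2 (1.95, adjusted p = 0.0266) and ATP5 (3.07, adjusted p = 0.0072) alone of the 10 would pass the same test. Both would then be higher in the mutant. The adjusted p of the others would lie between 0.358 (COX6B_2) and 0.998 (PkaR2).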

How the results depend on the processing

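No paired analysis was possible because the tables hold no values for single libraries, and for the same reason no replicate could be left out. The 477 higher calls became 306 with a log2 fold change of at least 1, 274 with FDR recomputed over genes at or above the median log2 CPM, 116 under Benjamini-Yekutieli, 56 under the F reference and 949 with level and span taken out together. The 1779 lower calls became 1151 under the F reference and 1004 with level and span out, and lay between 1358 and 1879 under the other 6 alternatives. The 799 higher differences between strains became 457 above the median log2 CPM, 113 under a t reference and 1203 with level and span out. The 2020 lower differences became 1339 under the t reference and 1102 with level and span out. With the sign of the mutant table turned there were 273 higher and 40 lower differences. Of 116 named genes, 79 were called. With the level trend out 15 named genes changed sign and 23 calls were lost. Of the 15, those called before or after were NDUFS1 (0.077), PbMdha (1.28) and PbMdhb (0.34). With level and then span out 14 changed sign and 26 calls were lost, and PbMdha (1.29) and PbMdhb (0.38) were those called before or after. With level and span out together 31 changed sign, 37 calls were lost and 6 called genes were called in the other direction. Of the 31, 20 were called before or after: ATP16 (2.003), COX5A (0.98), COX5B (0.57), COX6A (0.79), CYT1 (0.22), NDI2 (0.20), NDUFA13 (1.65), NDUFA4_2 (2.90), NDUFB11 (1.10), Ndufab1 (0.95), PbMdha (1.53), PbMdhb (1.17), PbPdhE1a (0.14), Pp2B2 (0.93), QCR10 (0.036), QCR1_2 (0.16), QCR6 (2.13), RIP1 (0.69), SDHC (0.36) and SDHD (0.017) had these log2 folds. The cause of these changes was not tested. Centring changed the sign of COX7A alone, which was not called, and ended 3 calls. No named gene changed sign under the fold limit, the F reference or Benjamini-Yekutieli, where 7, 23 and 16 calls were lost. The log2 CPM limit left 104 of the 116 genes tested, with no call lost among them and 6 called genes not tested. The alternatives on span and the turned sign were chosen after seeing the data.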
